A study of Homo sapiens with 6 samples.

Results

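The 6 genes described here regulate signals that start at cell surface receptors. They are PIK3R1, ARRB1, the tyrosine phosphatase genes PTPN3, PTPN6 and PTPRJ, and AFAP1L2. They were chosen by their symbols from 405 genes that the authors had selected on the difference between 2 groups of arrays, so the differences given here describe that choice and carry no test. All 6 had a probe set in the table of all arrays, which listed 32321 probe sets. The arrays measured RNA of Panc-1, an established cell line of a human ductal carcinoma of the pancreas. The cells were transfected with the empty pCIG vector (3 arrays) or with pCIG carrying Gli3T (3 arrays), a dominant repressor derived from GLI3, one of the Gli transcription factors at the end of the hedgehog pathway. An IRES-GFP marked the transfected cells, and both groups were sorted for GFP 24 h after a transient transfection with Lipofectamine. All values are therefore averages over sorted cells of 1 line, in which fewer expressing cells and less RNA per cell cannot be told apart. No label places the arrays in separate cultures, and their spread could thus be technical.

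Growth factor receptors pass their signal on by phosphorylating tyrosines. Proteins with SH2 domains dock on these sites, among them p85-alpha, the regulatory subunit of class I PI3-kinase encoded by PIK3R1, which stabilises the catalytic subunit and holds it inactive until it docks. Tyrosine phosphatases remove the phosphate again. PTPN6 encodes SHP-1, a phosphatase with SH2 domains best known from blood cells and also made in epithelia. PTPN3 encodes PTPH1, a phosphatase with FERM and PDZ domains that lies at the membrane and cytoskeleton, and PTPRJ encodes the transmembrane phosphatase DEP-1 (CD148), which acts on growth factor receptors. ARRB1 encodes beta-arrestin 1, which binds phosphorylated G protein-coupled receptors, ends their coupling to G proteins and serves as a scaffold for other kinases. AFAP1L2 encodes XB130, an adaptor that is phosphorylated by Src family and receptor kinases and binds p85-alpha.

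GLI3, from which Gli3T is derived, was read first as a check of the labels (probe set 8139212). Its log2 values were 9.20, 9.12 and 9.31 with the empty vector and 8.00, 7.92 and 7.71 in the arrays labelled Gli3T, a difference of -1.34 ± 0.10 (SE, n = 3 per group). PTCH1, the hedgehog receptor gene and a textbook target of Gli, was higher by 0.91 ± 0.12 log2 (SE). A higher GLI3 signal was thus not seen where the labels place the construct. Nor was PTCH1 lower there, the direction that a repressor of Gli targets would give. Whether the GLI3 probes lie in the transfected part was not known here, and every direction below rests on the labels. Array medians lay between 8.38 and 8.53 log2. Empty vector replicate 1 stood apart from the rest, with correlations of 0.980 to 0.985 across probe sets with the other 5 arrays. The highest correlation with any other array was 0.992 for empty vector replicate 2 and 0.991 for empty vector replicate 3. Among the arrays labelled Gli3T the correlations were 0.995 to 0.996. The median SD of a probe set was 0.18 log2 among the empty vector arrays and 0.077 among those labelled Gli3T.

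Each of the 6 genes was higher in the arrays labelled Gli3T, and for each the lowest of these arrays lay above the highest empty vector array. The same held for 11.4% of all probe sets, and since the genes had been selected on this contrast nothing is read from their count. The log2 differences ran from 0.65 for PTPN3 to 1.35 for ARRB1, with a median of 0.83. Over all probe sets the median difference was -0.05, with quartiles of -0.14 and 0.06. Ranked by difference from the highest, ARRB1 stood 10th and PIK3R1 16th of the 32321 probe sets, AFAP1L2 stood 75th, PTPN6 263rd, PTPRJ 274th and PTPN3 396th. The smallest rise among the authors' selected genes with values in all arrays was 0.58 log2 and their median rise 0.74. PTPN3 thus lay near the lower end of the selection, PTPN6 and PTPRJ close to its middle and ARRB1 near its top.

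**Figure D1:**
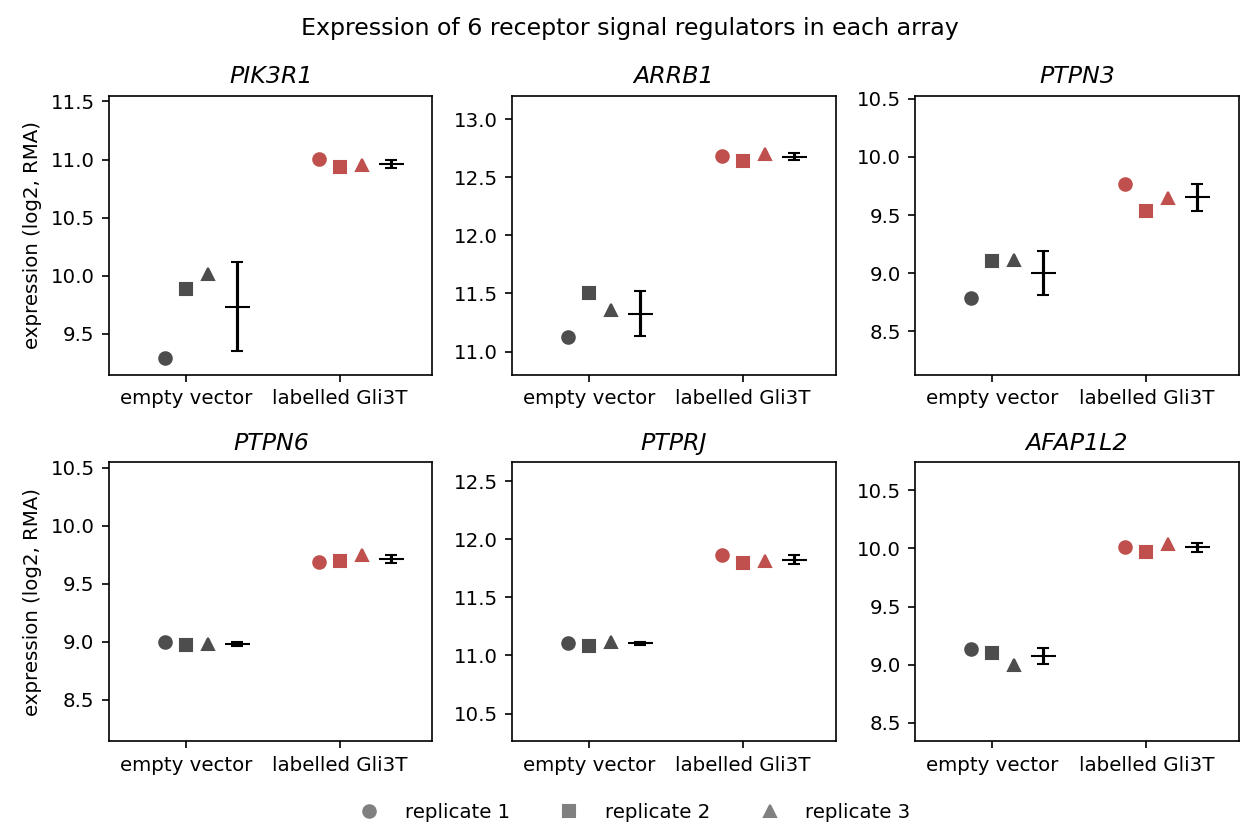
Log2 expression of each gene (y axis) in the empty vector arrays (grey) and the arrays labelled Gli3T (red), with symbols for replicates 1 to 3 and a black mark and bar for the group mean and SD. All panels span the same range. PIK3R1, ARRB1 and PTPN3 were lowest in empty vector replicate 1, whereas the empty vector arrays of PTPN6 and PTPRJ nearly coincided.

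PIK3R1 (probe set 8105778) had log2 values of 9.30, 9.89 and 10.02 in empty vector replicates 1 to 3, and of 11.01, 10.94 and 10.95 in the arrays labelled Gli3T. The arrays labelled Gli3T lay within 0.066 log2 of each other, whereas empty vector replicate 1 lay well below replicates 2 and 3, and the groups did not overlap. The means were 9.73 ± 0.38 (SD, n = 3) and 10.97 ± 0.035 (SD, n = 3), and the SD of the empty vector arrays was 10.9 times that of the others. The difference was 1.23 ± 0.22 log2 (SE), or 2.35-fold. The gap between the groups, from the highest empty vector array to the lowest array labelled Gli3T, was 0.92 log2.

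ARRB1 (probe set 7950473) had the largest difference of the 6 genes with all arrays. Its order with PIK3R1 was not stable, as without empty vector replicate 3 PIK3R1 stood at 1.37 and ARRB1 at 1.36. ARRB1 read 11.12, 11.50 and 11.36 with the empty vector and 12.68, 12.64 and 12.70 in the arrays labelled Gli3T. The means were 11.33 ± 0.19 and 12.68 ± 0.030 (SD, n = 3 each), a difference of 1.35 ± 0.11 log2 (SE), or 2.55-fold. Its groups were 1.14 log2 apart at their nearest arrays, the widest gap among the 6 genes. Beta-arrestin 1 shares its fold with the alpha-arrestins, 2 of which were also named in the files and went the other way. TXNIP, which binds thioredoxin and limits glucose uptake, differed by -2.10 ± 0.08 log2 (SE), and ARRDC4, its close relative, by -0.80 ± 0.11 (SE).

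The phosphatase genes had smaller differences, and these were close to each other. PTPN6 (probe set 7953569) read 9.00, 8.97 and 8.98 with the empty vector and 9.69, 9.69 and 9.75 in the arrays labelled Gli3T, a difference of 0.73 ± 0.02 log2 (SE), or 1.65-fold. PTPRJ (probe set 7939839) read 11.11, 11.09 and 11.11 against 11.87, 11.79 and 11.81, a difference of 0.72 ± 0.02 (SE), also 1.65-fold. In both genes the SD of the empty vector arrays, 0.016 and 0.015 log2, was below the median SD of that group, so their replicates were tighter than those of most probe sets. Centred on their own means, the values of these genes differed by a root mean square of 0.035 log2 over the 6 arrays, the smallest distance among the 15 pairs that the 6 genes form. The points are 6 arrays that share the contrast on which both genes had been selected.

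PTPN3 (probe set 8163149) read 8.78, 9.11 and 9.12 with the empty vector and 9.77, 9.54 and 9.65 in the arrays labelled Gli3T. Of the 6 genes it alone had a spread of over 0.1 log2 among the arrays labelled Gli3T, at 0.23. The difference was 0.65 ± 0.13 log2 (SE), or 1.57-fold, and the nearest arrays of the groups were 0.42 log2 apart, the narrowest gap of the 6. Against PTPN6 and PTPRJ its difference was smaller by less than its own standard error.

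AFAP1L2 (probe set 7936439) read 9.14, 9.10 and 9.00 with the empty vector and 10.02, 9.97 and 10.04 in the arrays labelled Gli3T. The means were 9.08 ± 0.07 and 10.01 ± 0.04 (SD, n = 3 each), and the difference was 0.93 ± 0.05 log2 (SE), or 1.91-fold. Here empty vector replicate 1 was the highest of its group. The gene of the adaptor thus stood between the phosphatase genes and the gene of the PI3-kinase subunit that it binds. The difference of PIK3R1 exceeded that of AFAP1L2 by 0.30 log2 with all arrays and by 0.05 without empty vector replicate 1.

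The weight of empty vector replicate 1 was uneven among the 6 genes. Its difference from the mean of replicates 2 and 3 was -0.66 log2 in PIK3R1, -0.33 in PTPN3 and -0.31 in ARRB1. In PTPN6, PTPRJ and AFAP1L2 it lay above that mean, by 0.027, 0.0095 and 0.088. Over all probe sets the same quantity had a median of 0.05 and ran from -0.60 to 0.56 between its 5th and 95th percentiles. A gap as low as that of PIK3R1 was found in 3.95% of probe sets, against 15.6% for PTPN3 and 16.9% for ARRB1. Replicate 1 was the lowest empty vector array in 36.1% of all probe sets and in 69.8% of the selected genes that were higher in the arrays labelled Gli3T (183 of 262). Among the selected genes of both directions it was lowest in 239 of 398. A low replicate 1 lowers the empty vector mean and enlarges a rise, so selection on the rise favours such genes. Nothing is therefore read from the larger share. Of the 6 genes, replicate 1 was lowest in 3.

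**Figure D2:**
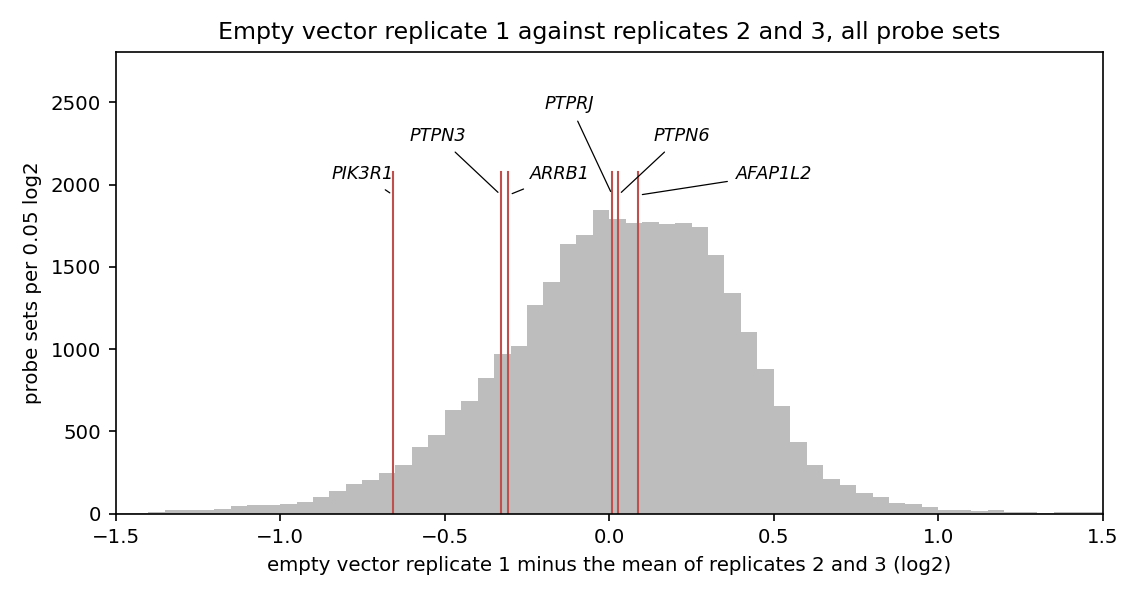
Histogram over the 32321 probe sets of empty vector replicate 1 minus the mean of replicates 2 and 3, on the log2 scale (x axis; y axis, probe sets per bin of 0.05 log2), with a red line for each gene. PIK3R1 lay at -0.66, PTPN3 and ARRB1 near -0.3, and the other genes close to 0.

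Leaving that array out lowered the difference of PIK3R1 from 1.23 to 1.01 log2 (a change of -17.8%), that of PTPN3 from 0.65 to 0.54 (-16.9%) and that of ARRB1 from 1.35 to 1.25 (-7.58%). PTPN6, PTPRJ and AFAP1L2 were then at 0.73, 0.72 and 0.96. With any 1 of the 6 arrays left out, PIK3R1 lay between 1.01 and 1.37 and ARRB1 between 1.25 and 1.44. The ranges were 0.54 to 0.71 for PTPN3, 0.71 to 0.74 for PTPN6, 0.70 to 0.74 for PTPRJ and 0.89 to 0.96 for AFAP1L2. No gene changed its direction, which the groups' lack of overlap fixes.

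**Figure D3:**
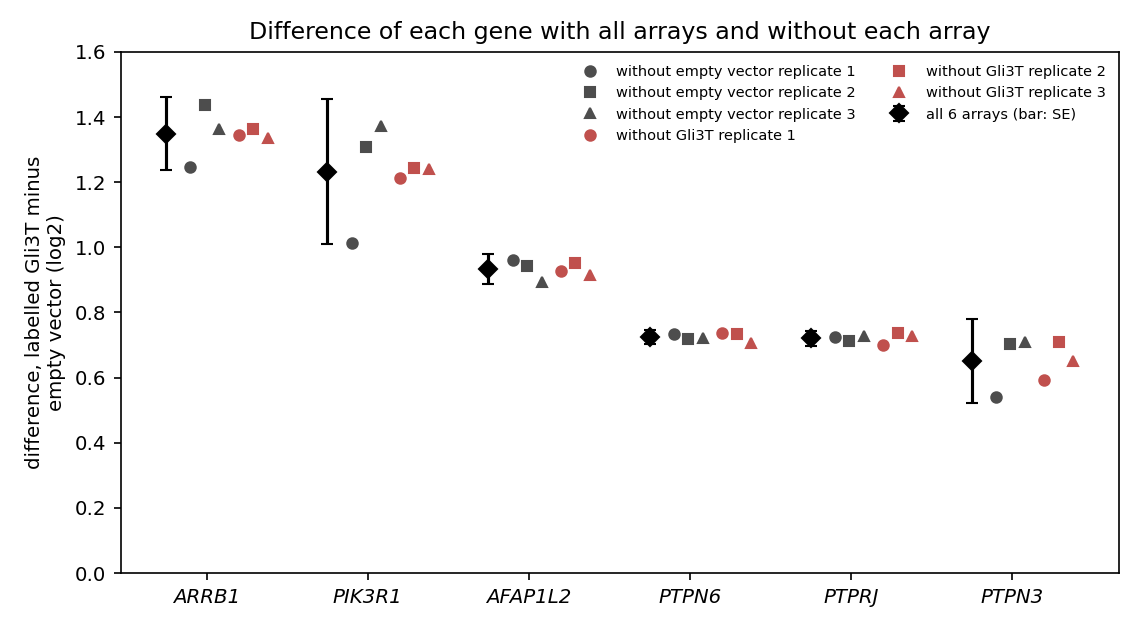
Difference of each gene between the groups (y axis, log2, labelled Gli3T minus empty vector) with all arrays (black diamond, bar for the SE) and with each array left out (grey, an empty vector array; red, an array labelled Gli3T; symbols for replicates 1 to 3). The estimates of PIK3R1 ran from 1.01 to 1.37 and those of PTPN6 from 0.71 to 0.74.

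Promoter windows of 300 bases from RefSeq (250 before and 50 after a transcript's start, GRCh38.p14) were read for 4 of the 6 genes, PIK3R1, PTPN3, PTPN6 and AFAP1L2. They are shown because the labels name a Gli construct as the agent. The window at the first listed start of PIK3R1 and those with a match to the inner letters of the Gli consensus were as follows, 5′ to 3′ on the strand of the gene, with a match in capitals.
PIK3R1, chr5:68215506-68215805, plus strand: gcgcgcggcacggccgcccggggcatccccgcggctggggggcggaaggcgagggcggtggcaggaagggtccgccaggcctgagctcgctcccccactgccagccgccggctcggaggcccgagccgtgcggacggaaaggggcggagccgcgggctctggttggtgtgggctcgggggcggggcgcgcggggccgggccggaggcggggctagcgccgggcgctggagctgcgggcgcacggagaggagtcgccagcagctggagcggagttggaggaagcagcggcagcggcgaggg
PTPN3, chr9:109451335-109451634, minus strand: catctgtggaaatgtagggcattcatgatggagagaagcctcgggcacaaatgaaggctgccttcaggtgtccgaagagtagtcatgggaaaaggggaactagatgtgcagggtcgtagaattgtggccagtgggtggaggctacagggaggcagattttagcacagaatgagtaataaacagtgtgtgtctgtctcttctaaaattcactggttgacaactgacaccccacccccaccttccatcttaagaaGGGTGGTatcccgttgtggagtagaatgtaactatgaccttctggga
PTPN6, chr12:6951106-6951405, plus strand: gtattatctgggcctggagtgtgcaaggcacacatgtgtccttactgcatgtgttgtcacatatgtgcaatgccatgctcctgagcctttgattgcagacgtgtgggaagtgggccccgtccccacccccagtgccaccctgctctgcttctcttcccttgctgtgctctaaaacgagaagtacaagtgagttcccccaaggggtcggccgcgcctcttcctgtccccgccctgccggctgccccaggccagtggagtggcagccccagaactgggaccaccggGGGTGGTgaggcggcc

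The letters searched were GACCACCCA, the Gli consensus, and its inner part ACCACCC, on both strands, where every match to the first also counts as a match to the second. The consensus was in none of the 11 windows of the 4 genes and in 0.236% of all 35116 windows. The inner letters were in 2 of the 11 windows, the ones of PTPN3 and PTPN6 printed here, and in 4.77% of all windows. Both matches lay on the other strand, at bases 254 to 260 and 285 to 291 of the window, downstream of the start. None of the 4 windows of PIK3R1 held them, nor did that of AFAP1L2. The G and C content of the printed windows was 80.0% for PIK3R1, 48.7% for PTPN3 and 61.7% for PTPN6, against a median of 58.7% over all windows. Of the other PIK3R1 windows, 1 lay above that median, at 62.3%, and the rest lay below it, at 42.3% or less. Which of a gene's starts these cells used was not measured, and these letters do not show binding.

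Of 288 genes on 12 lists of receptor signalling and hedgehog genes, 21 could be named through the authors' selected table, the 6 genes described here and 15 others. All 15 passed the test across all probe sets (limma, Benjamini-Hochberg adjusted p of at most 0.05), 7 higher and 8 lower in the arrays labelled Gli3T. In that test 2.47% of all probe sets were called, 1.40% higher and 1.06% lower, but 391 of the 398 selected genes with values were called as well, so the count of 15 follows from how they came to be named. The count also fell whichever array labelled Gli3T was left out, to 0, 1 and 0 of the 15 without replicate 1, 2 or 3 (limma). All 15 still had an unadjusted p under 0.05 in each of these fits (limma). Without empty vector replicate 1, 2 or 3, the count was 15, 9 and 4. Levels of the other list genes were not analysed here, and the same holds for all 32 marker genes of leukocytes, endothelium, fibroblasts and pancreatic ductal cells, so the cell line was not checked against its markers.

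Among PI3-kinase genes, PIK3C2B, a class II catalytic enzyme, was higher by 0.64 ± 0.05 log2 (SE). PLEKHA2, whose product binds a lipid made in PI3-kinase signalling, was higher by 0.81 ± 0.08 (SE). SGK1, a kinase that PI3-kinase signalling activates alongside AKT, went the other way at -1.17 ± 0.06 (SE). It read 9.76, 9.92 and 9.76 with the empty vector and 8.70, 8.62 and 8.61 in the arrays labelled Gli3T. PIK3R1 and PIK3C2B were thus higher and SGK1 lower in the same arrays.

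Near the receptor, EPHB4, a receptor tyrosine kinase for ephrins, was higher by 0.71 ± 0.07 log2 (SE), and LYN, a Src family kinase, by 0.78 ± 0.16 (SE). ABL2, a non-receptor tyrosine kinase, was lower, at -1.02 ± 0.16 (SE). SOS2, which loads RAS with GTP, was higher by 0.89 ± 0.18 (SE), and so was RASA1, which has RAS hydrolyse it, by 0.66 ± 0.09 (SE). FRS2, the adaptor of fibroblast growth factor receptors, differed by -0.60 ± 0.09 (SE). Beside ARRB1, the other regulators of G protein-coupled receptors that were named were RGS2 and RGS4, which speed the shutdown of G protein alpha subunits. Both were lower, at -1.09 ± 0.19 and -0.91 ± 0.12 (SE), opposite in direction to ARRB1. Empty vector replicate 1 was the lowest array of its group in each of these genes. Against the mean of replicates 2 and 3 it lay at -0.49 log2 in LYN and in SOS2, -0.45 in ABL2 and -0.50 in RGS2. Its gap was smaller in the others, at -0.25 in RGS4, -0.14 in RASA1 and -0.13 in EPHB4 and in FRS2. Without empty vector replicate 1 the differences of LYN and SOS2 were smaller, at 0.62 and 0.73. Those of ABL2 and RGS2 then lay further from 0, at -1.17 and -1.25.

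**Figure D4:**
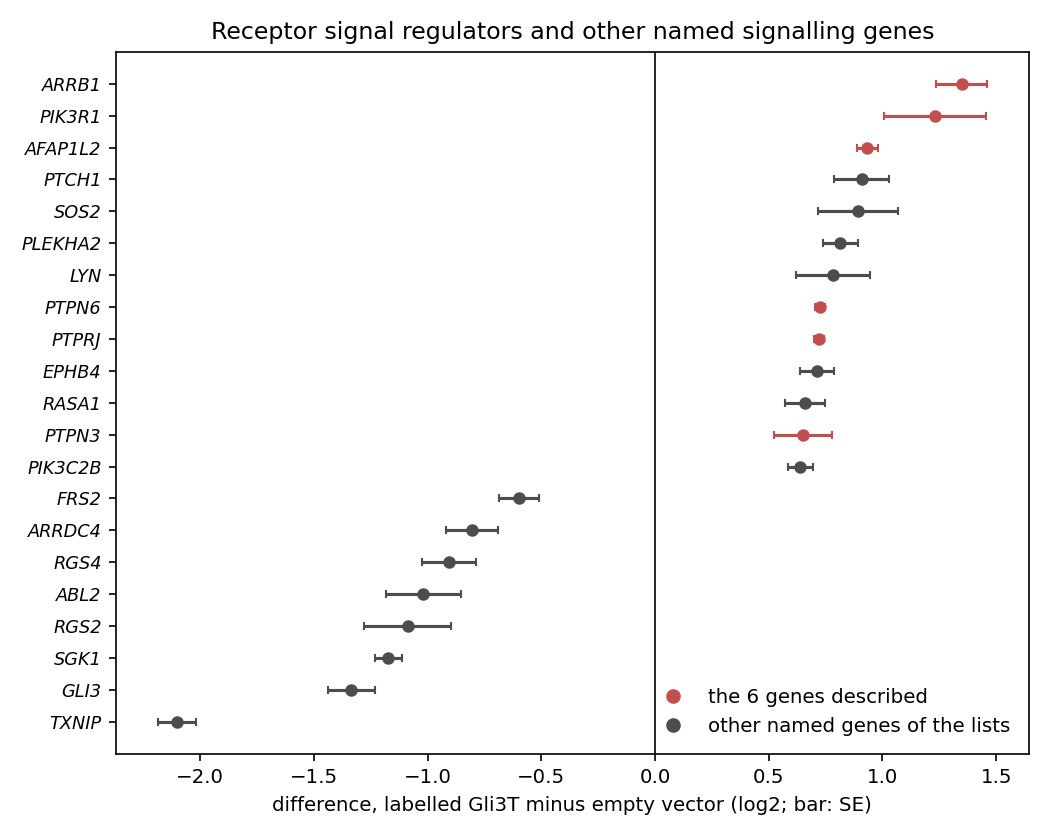
Difference between the arrays labelled Gli3T and the empty vector arrays (x axis, log2, bars for the SE, n = 3 per group) for the 6 genes described (red) and the 15 other named genes of the lists (grey), sorted by size. The 6 genes lay between 0.65 and 1.35, and the others between -2.10 and 0.91.

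The named genes whose values over the 6 arrays were most like those of each gene, by the root mean square difference of values centred per gene, were sought among 392 others. For ARRB1 these were ANGPTL4, a secreted inhibitor of lipoprotein lipase (0.029 log2), and TMPRSS2, a transmembrane serine protease gene (0.087). For PIK3R1 they were TNFSF10, which encodes the death ligand TRAIL (0.057), and MBOAT1, a lysophospholipid acyltransferase gene (0.063). These 4 genes shared a low empty vector replicate 1, with gaps of -0.35 to -0.67 log2. PTPN3 was nearest to the integrin gene ITGB3 (0.020) and the kinase gene RIPK1 (0.026), where that array lay at -0.32 log2 in both. PTPN6 was nearest to CTDSP1, a phosphatase gene (0.036), and TENC1, now TNS2 (0.037), PTPRJ to BHLHE41 (0.032) and UHRF1BP1 (0.038), and AFAP1L2 to ADAMTS15 and C7orf68, now HILPDA (0.049 each). All these genes had been selected on the same contrast. The search also used empty vector replicate 1, so likeness to each gene in that array is built in.

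The authors' selected table was checked before its rows were used. In the rows of all 6 genes its first 5 sample columns lay within 0.016 log2 of the table of all arrays, while the sixth, headed for the third array labelled Gli3T, did not go with its row. Its cell was -1.85 log2 from the value of that array in ARRB1, -1.39 in AFAP1L2, -0.53 in PIK3R1 and in PTPN6, 1.65 in PTPN3 and 0.16 in PTPRJ. Taken as headed, that column would give PTPN3 a difference of 1.21 and ARRB1 one of 0.74, in place of 0.65 and 1.35. All values above therefore come from the table of all arrays.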

How the data were processed

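RNA of sorted Panc-1 cells was measured on 6 arrays, grouped by sample title. The values deposited by the authors are on the log2 scale. Per the submitters' processing notes, RMA, oligo and limma were used, with no versions stated. The limits of the selection, the annotation and the build are not given in the sources used here.

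The authors' selected table held 405 probe sets with symbols, of which the table of all arrays held 398. In 263 ordinary rows, each of the first 5 columns lay within 0.1 log2 of its array in 262 rows, and the sixth in 13. In all 135 displaced rows (first cell at most 1.0), columns 2 to 6 held the array headed 1 column to the left. Values were therefore taken from the table of all arrays, and names from the selected table, updated through RefSeq synonyms (GRCh38.p14). An unnamed column (1 in all) was not used.

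Standard errors come from both groups' SDs. limma 3.58.1 in R 4.3.3 was fitted to all 32321 probe sets without a filter, with Benjamini-Hochberg adjustment, was tested on simulated data and served for the background. The genes, lists and tests were chosen with earlier results of these data known. Named were the 6 genes, GLI3, PTCH1, up to 4 called genes per list and the 2 most similar genes per gene. The genes under other observations were picked after their values were seen. A planned search of protein motifs was not run. Deviations of same-numbered arrays correlated at -0.30, -0.14 and 0.04, so the numbers were not taken as pairs. Alternatives were a replicate block, other scalings, a mean trend, array weights, a filter on dim probe sets, stricter limits, leaving out each array, and the selected table's values. The number of arrays limits the precision.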

Additional observations from a re-analysis of the deposited data

How the results depend on the processing

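The differences of the 6 genes kept their direction under the alternatives run on them, which were the replicate block, median centring, quantile normalization, each array left out and the selected table's values. The groups' lack of overlap fixes the direction with any 1 array left out. The genes had also been selected on this contrast, so nothing is read from the kept direction. Centring each array on its median raised all 6 differences by the same amount. It gave 1.29 for PIK3R1, 1.40 for ARRB1, 0.71 for PTPN3, 0.99 for AFAP1L2 and 0.78 for both PTPN6 and PTPRJ. Only in PTPN6 and PTPRJ, with their tight replicates, was the shift beyond 1 SD. The selected table as headed gave 0.74 for ARRB1, 1.21 for PTPN3, 0.55 for PTPN6, 0.78 for PTPRJ and 0.47 for AFAP1L2. The replicate block left these differences as they were, since every number is in both groups. The count of called probe sets was far less stable. It was 798 with all arrays and 240 with the replicate block (51 higher, 189 lower). A mean trend gave 1292 and array weights gave 7104. These weights were 0.13, 4.46 and 0.37 for empty vector replicates 1 to 3, and 1.57, 1.07 and 2.68 for the arrays labelled Gli3T. Among the probe sets at or above the median mean, 1446 were called. At an adjusted p of at most 0.01 (limma), 31 of all probe sets were called. Leaving out 1 array gave 0 to 2178 calls: 2178 without empty vector replicate 1, 69 without empty vector replicate 3, 1 without Gli3T replicate 2, and 0 without Gli3T replicate 1 or 3, where limma gave 3471 and 3469 probe sets at an unadjusted p under 0.05. Of the 15 other list genes, 7 were called with the replicate block (1 higher, 6 lower), 3 at an adjusted p of at most 0.01, and 0 to 15 with 1 array left out, of which 9 without empty vector replicate 2 and 4 without empty vector replicate 3. The causes were not tested. Another probe set per gene was not run, as the selected table listed 1 for each of the 6 genes and others on the array could not be named here. Signal over background was not known here.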

Other observations

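Genes of receptor signalling outside the lists, picked from the authors' selected table after their values had been seen, are given as values only. Higher in the arrays labelled Gli3T were BCAR1, which encodes the docking protein p130Cas, by 0.65 ± 0.09 log2 (SE, n = 3 per group), STAT5A, a transcription factor of cytokine receptors, by 0.79 ± 0.09, and IL4R, the receptor gene of interleukin 4, by 0.99 ± 0.07. SYNJ2, an inositol phosphatase gene, was higher by 0.70 ± 0.10 (SE) and PIM2, a serine and threonine kinase gene, by 0.87 ± 0.12. GPR39, a zinc-sensing G protein-coupled receptor gene, was higher by 1.11 ± 0.21 (SE), and by 0.91 without empty vector replicate 1. RASD2, a RAS-like GTPase gene, was higher by 1.15 ± 0.20 (SE), and by 1.34 without that array. Lower were PEA15, which encodes a binding partner of ERK, at -0.60 ± 0.04 (SE), and the RAS-like GTPase genes RIT1 and GEM, at -0.60 ± 0.08 and -0.74 ± 0.12.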
